A study of Homo sapiens with 12 samples.

Results

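The antioxidant genes HMOX1, GCLM, SQSTM1, TXN, TXNRD1, PRDX1, NQO1 and GSR were followed through 12 libraries of MDA-MB-231, an established human cell line from a breast cancer classed as triple-negative. They were chosen by name, and all 8 of the 8 names were among the 6777 genes tested. The cells received 10 nM AZD0095, an inhibitor of the lactate exporter MCT4, or the solvent DMSO, and were harvested after 4 h. Transcripts, labelled as total RNA in the titles and as polyA RNA in another field, were read by RNA-seq and the stretches of mRNA covered by ribosomes, called footprints, by ribosome profiling, each in 3 AZD0095 and 3 DMSO libraries. The series is about lactate held inside the cell and its bearing on gene expression and protein synthesis. The labels give no genotype, and all cells shared DMEM with serum and antibiotics, while footprint material of either treatment was also exposed to cycloheximide, which holds ribosomes on mRNA. Whether replicates came from different cultures is not in the labels, and the p-values therefore refer to the spread of these libraries, which may be technical.

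Cells meet oxidants with a set of enzymes under the transcription factor NRF2, the product of NFE2L2. In unstressed cells the adaptor KEAP1 hands NRF2 to a CUL3 ubiquitin ligase for destruction, and oxidants or electrophiles that modify KEAP1 let NRF2 reach antioxidant response elements in its target genes. GCLM belongs to the synthesis arm of glutathione and GSR to its recycling arm, TXN, TXNRD1 and PRDX1 form the thioredoxin arm, NQO1 reduces quinones, HMOX1 opens the haem ring, and SQSTM1, also called p62, is an autophagy receptor that binds KEAP1. HMOX1 is in addition held down by the repressor BACH1. All 8 genes are known as NRF2 targets.

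Of the 8 transcripts, 3 were called after AZD0095, and they did not move in the same direction: HMOX1 rose, GCLM and SQSTM1 fell, and TXN, TXNRD1, PRDX1, NQO1 and GSR did not pass. Called here means an adjusted p under 0.05 in limma, a linear model with variances moderated across genes, on log2(FPKM + 1). FPKM is a fragment count scaled to gene length and sequencing depth. Over all genes tested 8.04% were called in RNA, 5.03% higher and 3.01% lower. The median log2 fold change was -0.01 over the 8 genes and 0.01 over all genes.

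Promoter sequences, from RefSeq on GRCh38.p14, were on hand for 5 of the 8 genes at 8 starts, and the letters of the antioxidant response element, TGACNNNGC, were searched on both strands of the 250 bases before each start. They were found once before the only start of GCLM and once before each of the 2 starts of TXNRD1, and were not among the letters of this window at the starts of SQSTM1, TXN and NQO1. Of all 35116 promoters of this length in the table, 10.9% held the motif. The windows of GCLM, whose transcript fell, and of the upstream start of TXNRD1, whose transcript did not pass, are shown. The motif, with other letters at its N positions, stands before both genes. No sequence was on hand for HMOX1, the member that rose, and whether the motif bears on the RNA changes was not tested. Both windows are read 5′ to 3′ along the gene, with the motif in capitals. The GCLM window is chr1:93909431-93909680 on the minus strand, and its match, TGACTAAGC, reads on the strand opposite to the gene from 34 to 26 bases before the start. The TXNRD1 window is chr12:104215529-104215778 on the plus strand, and its match, TGACTTCGC, runs from 99 to 91 bases before the start. The window of the other TXNRD1 start, chr12:104286782-104287031, is not shown. Its match, TGACAAAGC, reads on the strand opposite to the gene, as in GCLM, from 102 to 94 bases before that start. Which start the cells used was not tested.
GCLM: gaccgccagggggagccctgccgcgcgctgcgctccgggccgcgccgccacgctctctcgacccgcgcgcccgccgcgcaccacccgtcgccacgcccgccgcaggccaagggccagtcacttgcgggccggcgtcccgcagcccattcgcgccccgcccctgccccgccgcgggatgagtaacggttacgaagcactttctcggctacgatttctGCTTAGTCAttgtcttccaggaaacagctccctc
TXNRD1: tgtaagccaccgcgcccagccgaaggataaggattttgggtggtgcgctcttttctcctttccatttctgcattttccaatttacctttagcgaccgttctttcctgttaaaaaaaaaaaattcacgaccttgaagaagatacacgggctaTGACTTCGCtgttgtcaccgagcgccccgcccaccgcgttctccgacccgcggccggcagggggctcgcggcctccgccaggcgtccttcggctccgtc
A match is a description of letters and not a measured binding site.

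HMOX1 encodes the inducible haem oxygenase, which turns haem into biliverdin, iron and carbon monoxide. Its gene, ENSG00000100292, spans chr22:35381096-35394207 in hg38. HMOX1 RNA was at 8.78, 8.73 and 8.31 FPKM in AZD0095 replicates 1, 2 and 3, against 6.60, 4.83 and 5.19 FPKM in DMSO replicates 1, 2 and 3. All 3 AZD0095 libraries lay above all 3 DMSO libraries. The means were 8.61 ± 0.257 FPKM with AZD0095 and 5.54 ± 0.938 FPKM with DMSO (SD, n = 3 each), and the RNA log2 fold change was 0.56 ± 0.11 (SE, limma adjusted p = 0.021). Such a level is low in this list, higher than 15.7% of genes with AZD0095 and than 7.47% with DMSO, and the pseudocount of 1 makes the log2 fold change of so low a gene smaller than that of its FPKM.

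GCLM encodes the modifier subunit of glutamate-cysteine ligase, which lowers the demand of the catalytic subunit for glutamate in the first step of glutathione synthesis. Its gene, ENSG00000023909, spans chr1:93885199-93909430. GCLM RNA was at 18.1, 16.4 and 15.4 FPKM in AZD0095 replicates 1, 2 and 3, against 25.7, 21.2 and 22.4 FPKM in DMSO replicates 1, 2 and 3. Every AZD0095 library lay below every DMSO library. The mean was 16.6 ± 1.39 FPKM with AZD0095 and 23.1 ± 2.35 FPKM with DMSO (SD, n = 3 each), and the RNA log2 fold change was -0.45 ± 0.09 (SE, limma adjusted p = 0.027). This is a level of 0.73 times that of DMSO on the fitted scale.

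SQSTM1 encodes p62, which carries ubiquitinated cargo into autophagosomes. The gene, ENSG00000161011, spans chr5:179806393-179838078. SQSTM1 RNA was at 175, 165 and 162 FPKM in AZD0095 replicates 1, 2 and 3, against 200, 196 and 200 FPKM in DMSO replicates 1, 2 and 3. Again the groups did not overlap, and the DMSO libraries lay within 1.02-fold of each other. The mean was 167 ± 6.74 FPKM with AZD0095 and 199 ± 2.28 FPKM with DMSO (SD, n = 3 each), and the RNA log2 fold change was -0.25 ± 0.05 (SE, limma adjusted p = 0.020), the smallest of the 3 called changes. Over all genes the RNA groups did not overlap for 29.2% of genes, with AZD0095 above for 17.7% and below for 11.5%.

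**Figure D1:**
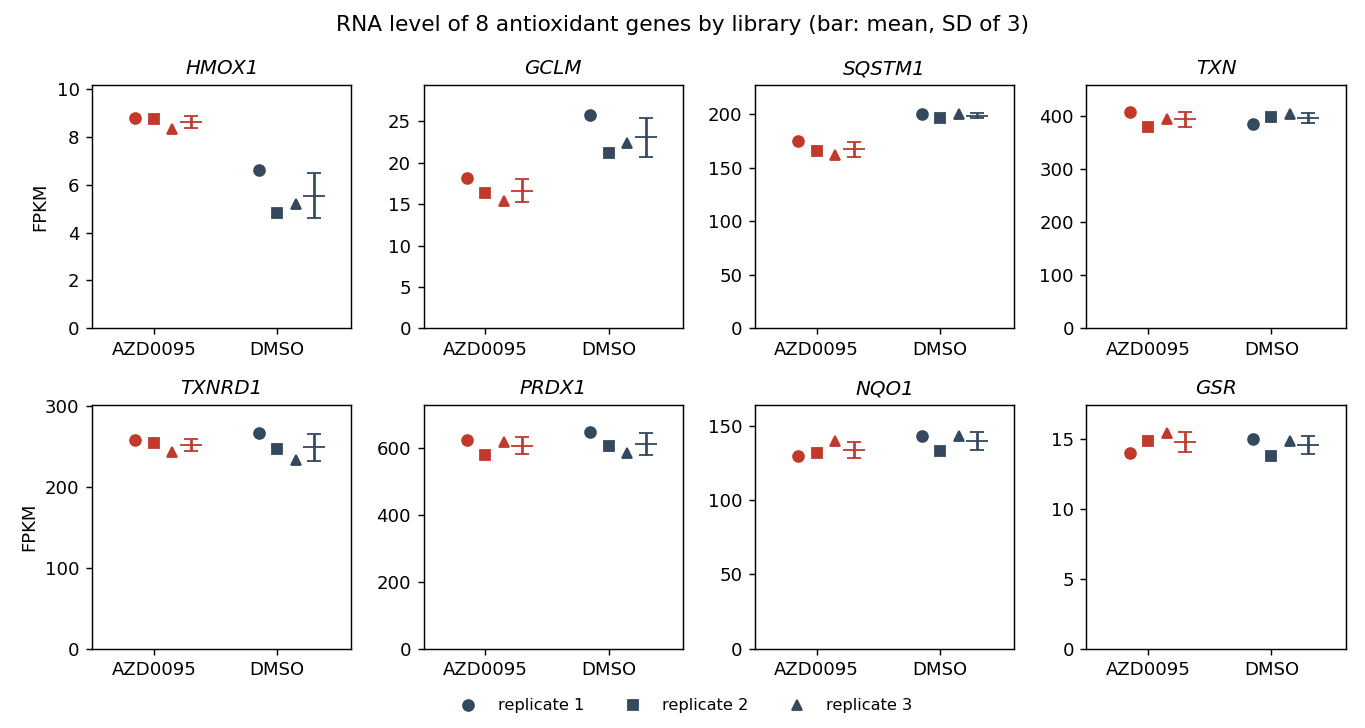
RNA level in FPKM (vertical axes, each from 0) of the 8 antioxidant genes in each AZD0095 and DMSO library, with a marker shape for each replicate number and the mean ± SD of 3 libraries beside the points. HMOX1 lies at 8.31 to 8.78 FPKM with AZD0095 and 4.83 to 6.60 with DMSO, GCLM and SQSTM1 lie lower with AZD0095, and the groups of the other 5 genes overlap.

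These 3 calls depended on single libraries. Left without AZD0095 replicate 2, AZD0095 replicate 3, DMSO replicate 2 or DMSO replicate 3, HMOX1 had an adjusted p of 0.094, 0.061, 0.10 and 0.073, GCLM of 0.11, 0.095, 0.070 and 0.072, and SQSTM1 of 0.090, 0.079, 0.090 and 0.067. GCLM and SQSTM1 also lost their call without DMSO replicate 1, at 0.074 and 0.054. Calls fell over all genes as well, from 341 higher and 204 lower with every library. Without AZD0095 replicate 2 or 3 or DMSO replicate 2 or 3, limma called 69, 124, 67 and 159 genes higher. The same fits called 47, 90, 33 and 90 lower, and the fit without DMSO replicate 1 called 174 higher and 106 lower. The log2 fold changes themselves stayed between 0.49 and 0.68 for HMOX1, -0.51 and -0.37 for GCLM and -0.28 and -0.22 for SQSTM1.

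The replicate 1 libraries of both treatments had the highest values on the second principal component of RNA, at 12.2 with AZD0095 and 3.18 with DMSO. The others lay between -7.90 and -0.02. On this component only AZD0095 replicate 1 stood clearly apart, since DMSO replicate 1 was nearer to AZD0095 replicate 2, at -0.02. On the first component replicate 1 was the lowest library of each treatment. With AZD0095 replicates 1, 2 and 3 were at 0.60, 9.98 and 12.4, and with DMSO at -12.4, -6.56 and -4.00. Replicates 2 and 3 alone, an alternative chosen after seeing the data, called the same 3 of 8 genes, with log2 fold changes of 0.66 for HMOX1, -0.43 for GCLM and -0.28 for SQSTM1 and adjusted p-values of 4.7e-04, 0.0018 and 0.0016 (limma). Calls were also more frequent over all genes in that fit, at 656 higher and 739 lower, against 341 and 204 with every library. Between the replicate 1 libraries, AZD0095 minus DMSO, the log2 difference was 0.36 for HMOX1, -0.48 for GCLM and -0.19 for SQSTM1, with 1 library a treatment and so no test.

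**Figure D2:**
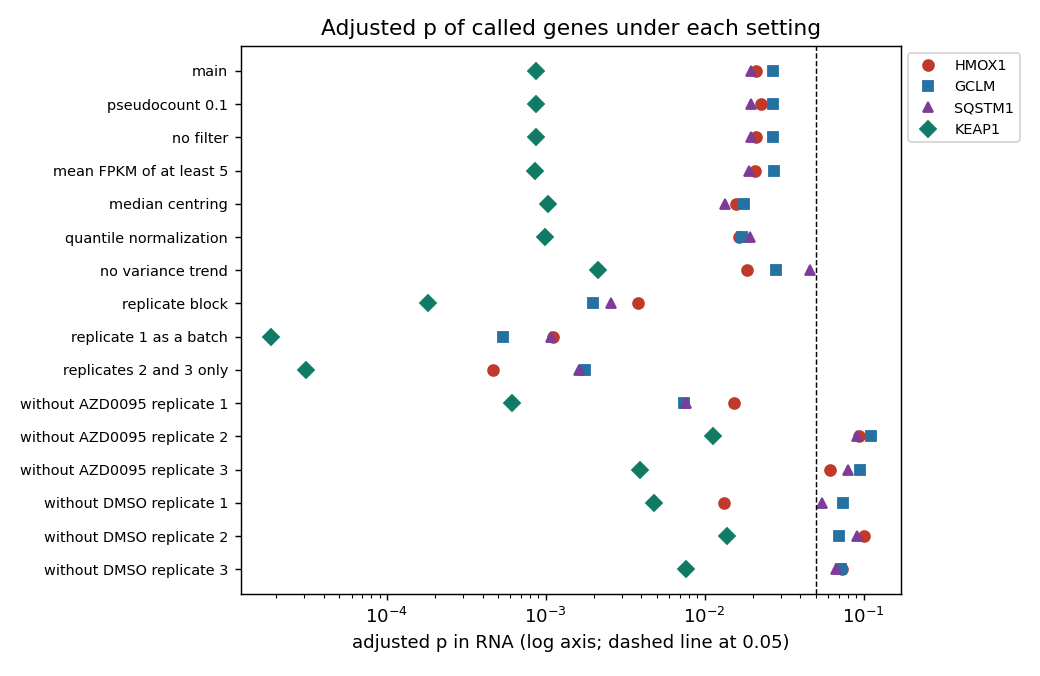
Adjusted p in RNA (horizontal log axis, dashed line at 0.05) of HMOX1, GCLM, SQSTM1 and KEAP1 under each setting (vertical axis), from the limma fit as reported at the top to the fits that leave out 1 library at the bottom. HMOX1, GCLM and SQSTM1 cross 0.05 in several fits that leave out 1 library, up to 0.11 for GCLM, while KEAP1 stays at or below 0.014.

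The thioredoxin arm did not pass in RNA. TXN encodes thioredoxin, the small protein that reduces disulfides, and its gene, ENSG00000136810, spans chr9:110243810-110256507. TXN RNA was at 407, 379 and 394 FPKM in the AZD0095 libraries, against 385, 398 and 404 FPKM in the DMSO libraries, so the groups overlapped. The 95% interval of its RNA log2 fold change ran from -0.11 to 0.10.

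TXNRD1, the cytosolic reductase that returns thioredoxin to its reduced form with NADPH, is ENSG00000198431 at chr12:104215779-104350307. TXNRD1 RNA was at 258, 254 and 243 FPKM with AZD0095, against 267, 246 and 233 FPKM with DMSO, and the interval of the log2 fold change ran from -0.12 to 0.15. PRDX1, a peroxiredoxin that breaks down hydrogen peroxide with electrons from thioredoxin, is ENSG00000117450 at chr1:45511051-45522890. It had the highest RNA level of the 8 genes, at 624, 577 and 616 FPKM with AZD0095 and 646, 605 and 583 FPKM with DMSO, and its interval ran from -0.14 to 0.11. For these abundant transcripts the intervals leave out a change as large as that fitted for GCLM.

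NQO1 and GSR did not pass either. NQO1, which reduces quinones by a pair of electrons and is often used as a readout of NRF2, is ENSG00000181019 at chr16:69709401-69726560. NQO1 RNA was at 130, 131 and 140 FPKM with AZD0095 and 143, 133 and 143 FPKM with DMSO, with an interval of -0.19 to 0.06 for the log2 fold change. GSR, which regenerates reduced glutathione with NADPH, is ENSG00000104687 at chr8:30678066-30727846. GSR RNA was at 14.0, 14.8 and 15.4 FPKM with AZD0095 and 15.02, 13.8 and 14.9 FPKM with DMSO, with an interval of -0.15 to 0.19. Adjusted p-values of these 5 genes were 0.52 for NQO1 and 0.89 to 0.94 for TXN, TXNRD1, PRDX1 and GSR (limma).

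FPKM is per length, so the RNA levels of the 8 genes can be ordered. From the highest, the order of the mean RNA level was PRDX1, TXN, TXNRD1, SQSTM1, NQO1, GCLM, GSR and HMOX1 with AZD0095 and with DMSO alike. With DMSO no library of a gene overlapped with its neighbour in this order. With AZD0095, GCLM at 15.4 to 18.1 FPKM and GSR at 14.0 to 15.4 FPKM overlapped, the lowest GCLM library being at 15.392 and the highest GSR library at 15.424 FPKM.

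Ribosome footprints had a low implied depth, which was inferred and not reported. The steps in the deposited footprint values gave an implied 141122, 217366 and 501351 reads in AZD0095 replicates 1, 2 and 3, and 123859, 107087 and 192324 reads in DMSO replicates 1, 2 and 3. Over all genes the median SD of a gene within a group, in log2 units, was 0.44 for AZD0095 footprints and 0.53 for DMSO footprints, against 0.10 for AZD0095 RNA and 0.09 for DMSO RNA. In the footprint comparison limma called 0 of 6777 genes (0%), and 530 (7.82%) had an unadjusted p under 0.05. Of the 8 genes 0 were called and 0 had an unadjusted p under 0.05. Implied depth was 2.03 times as high with AZD0095 as with DMSO on average, and its part in the footprint differences was not tested.

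HMOX1 footprints did not repeat between libraries. They were at 88.6, 18.3 and 12.8 FPKM in AZD0095 replicates 1, 2 and 3, against 39.97, 74.3 and 13.3 FPKM in DMSO replicates 1, 2 and 3. The highest and lowest library differed by 6.92-fold with AZD0095 and by 5.56-fold with DMSO, and the groups overlapped throughout. At the implied depth these values correspond to 12.5, 3.98 and 6.42 reads per kilobase with AZD0095 and 4.95, 7.95 and 2.57 with DMSO. The footprint log2 fold change was -0.30 with a 95% interval of -2.001 to 1.41 (limma adjusted p = 0.95), which holds the RNA change as well as its opposite.

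In every footprint library the GCLM value equalled a whole number of reads, to a tolerance of 0.02, at an implied length of 788 bases. The AZD0095 libraries held an implied 5, 17 and 27 GCLM reads and the DMSO libraries 6, 3 and 15. Exact Poisson 95% intervals, which cover counting error only, ran from 1.62 to 11.7 for the 5 reads with AZD0095 and from 0.619 to 8.77 for the 3 reads with DMSO. Scaled to depth, the footprints were at 45.0, 99.3 and 68.3 FPKM with AZD0095, against 61.5, 35.6 and 99.0 FPKM with DMSO. The groups overlapped, with a log2 fold change of 0.16 and an interval of -0.91 to 1.23 (limma adjusted p = 0.96). The RNA change of GCLM, at -0.45, lies inside this interval, so a footprint change of that size was not told apart from 0 in these libraries.

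SQSTM1 footprints were at 618, 725 and 654 FPKM with AZD0095, against 782, 843 and 861 FPKM with DMSO, all AZD0095 libraries below all DMSO libraries. Footprint groups did not overlap for 13% of all genes, with AZD0095 above for 7.19% and below for 5.77%. SQSTM1 was the only one of the 8 genes whose footprint groups did not overlap. The footprint log2 fold change of -0.32 ± 0.19 (SE) did not pass (limma adjusted p = 0.72), and the RNA log2 fold change of the gene was -0.25.

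**Figure D3:**
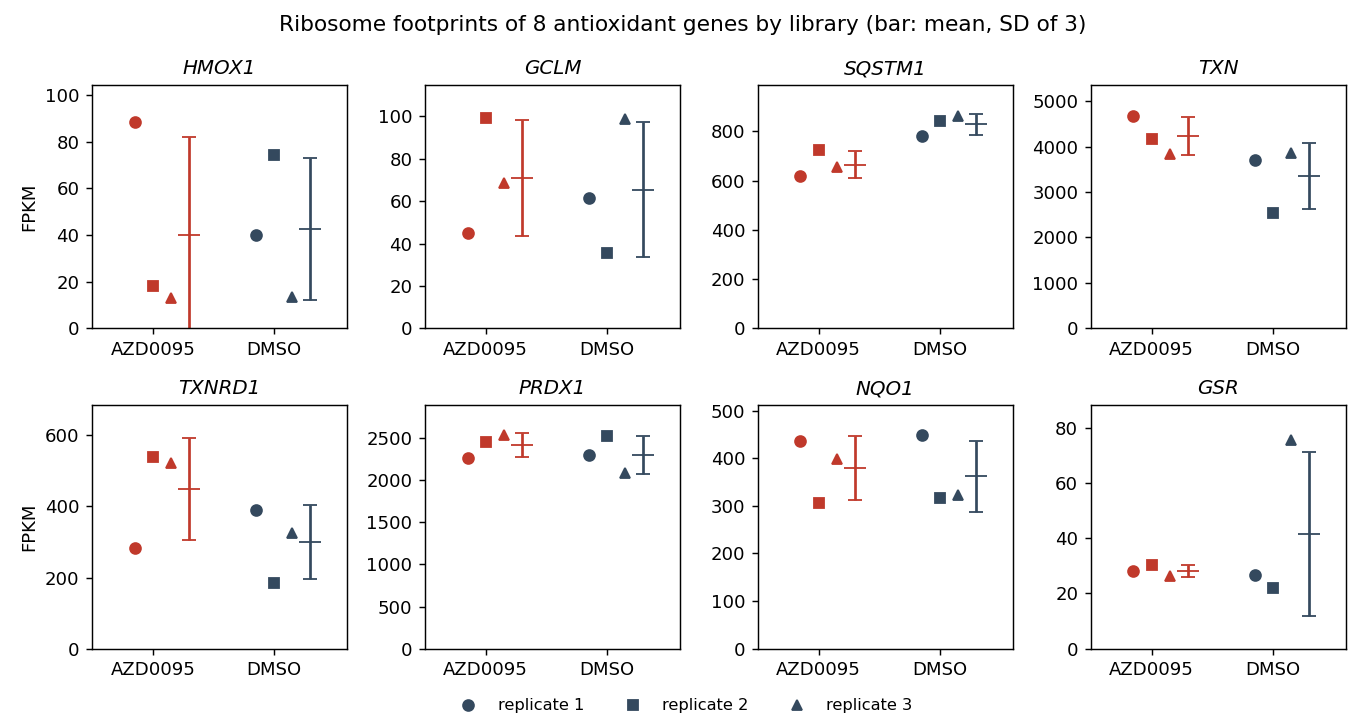
Footprint level in FPKM (vertical axes, each from 0) of the 8 antioxidant genes in each AZD0095 and DMSO library, with a marker shape for each replicate number and the mean ± SD of 3 libraries beside the points; the SD bar of HMOX1 with AZD0095 runs below 0 and is cut there. HMOX1 spans 12.8 to 88.6 FPKM with AZD0095 and 13.3 to 74.3 with DMSO, and the groups stand apart only for SQSTM1.

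In every library TXN and PRDX1 had higher footprint levels than the other 6 genes. TXN likewise gave whole reads, at an implied length of 347 bases, with 229, 315 and 667 reads in the AZD0095 libraries and 159, 94 and 257 in the DMSO libraries. Its footprints were at 4676, 4176 and 3834 FPKM with AZD0095, against 3699, 2530 and 3851 FPKM with DMSO. The lowest AZD0095 library and the highest DMSO library overlapped by a narrow margin. The footprint log2 fold change of TXN was 0.35 ± 0.18 (SE, limma adjusted p = 0.67), and 0.16 without DMSO replicate 2.

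TXNRD1 footprints were at 283, 540 and 522 FPKM with AZD0095, against 391, 185 and 325 FPKM with DMSO. A pair of AZD0095 libraries lay above all DMSO libraries, and AZD0095 replicate 1 lay inside their range. The footprint log2 fold change of TXNRD1 was 0.59 ± 0.34 (SE), with an interval of -0.15 to 1.32 and no call (limma adjusted p = 0.71). It was 0.89 without AZD0095 replicate 1 and 0.27 without DMSO replicate 2. PRDX1 footprints, at 2264, 2462 and 2537 FPKM with AZD0095 and 2302, 2532 and 2083 FPKM with DMSO, gave the narrowest interval of the 8 genes, -0.26 to 0.41.

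NQO1 footprints were at 436, 305 and 398 FPKM with AZD0095 and 449, 317 and 322 FPKM with DMSO, and the groups overlapped. GSR footprints were at 28.1, 30.4 and 26.2 FPKM with AZD0095, against 26.7, 22.0 and 75.8 FPKM with DMSO. DMSO replicate 3 alone lay far above the other 5 libraries. Without that library the footprint log2 fold change of GSR was 0.21, against -0.32 with it, and neither passed (limma adjusted p = 0.94 and 0.93).

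Translational efficiency is footprint FPKM over RNA FPKM of a gene, here with 1 added to each. Its change was the assay-by-treatment interaction of a limma fit to all 12 libraries. It asks whether the footprint change of a gene differed from its RNA change. The fit shares 1 variance per gene between RNA and footprints, although their spread differs. Over all genes the median SE was 0.47 for the change of the ratio, below the 0.51 for footprints alone. The efficiency intervals may therefore be too narrow. None of the 8 genes passed, and limma called 0 of 6777 genes (0%) with 578 (8.53%) at an unadjusted p under 0.05, against 0 of the 8. The log2 change of the ratio was -0.86 for HMOX1 with an interval of -2.86 to 1.14 (adjusted p = 0.84), and 0.61 for GCLM with an interval of -0.50 to 1.71 (adjusted p = 0.78). SQSTM1 was at -0.07 (-0.40 to 0.26) and PRDX1 at 0.09 (-0.22 to 0.39). TXN was at 0.36 (-0.07 to 0.79), TXNRD1 at 0.57 (-0.25 to 1.39), NQO1 at 0.13 (-0.38 to 0.65) and GSR at -0.34 (-1.52 to 0.84). With 1 library number left out of both assays the change of the ratio ran from -1.67 (without AZD0095 replicate 1) to -0.24 (without DMSO replicate 2) for HMOX1 and from 0.30 (without DMSO replicate 2) to 0.98 (without DMSO replicate 3) for GCLM. It ran from 0.16 (without DMSO replicate 2) to 0.46 for TXN and from 0.26 (without DMSO replicate 2) to 0.89 (without AZD0095 replicate 1) for TXNRD1, with no call for these 4 genes. The opposite signs of RNA and footprints for HMOX1 and GCLM are thus not shown to differ.

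**Figure D4:**
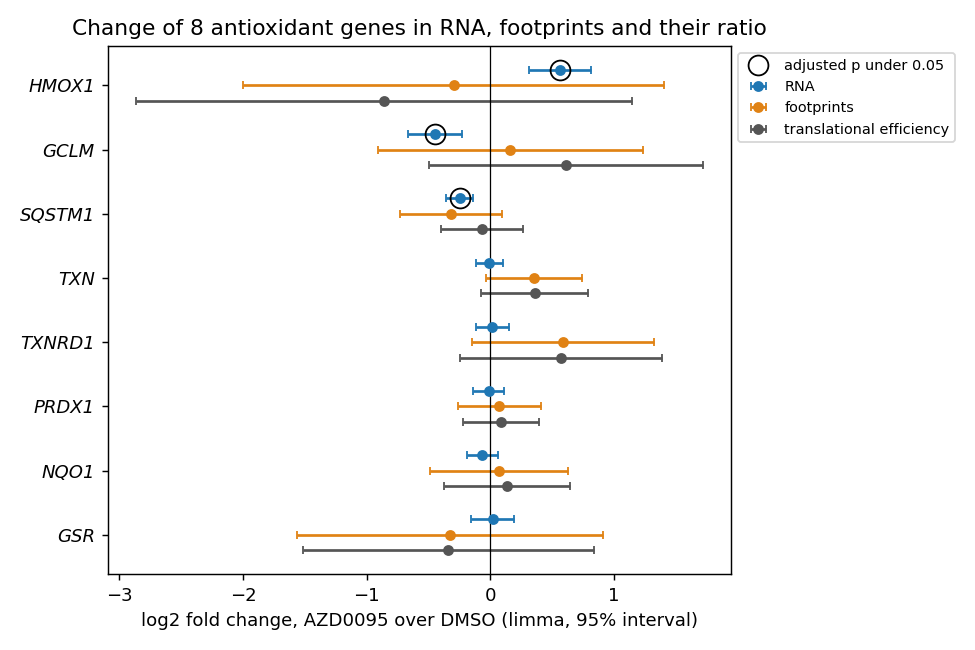
Log2 fold change, AZD0095 over DMSO (horizontal axis), of RNA, footprints and translational efficiency for each of the 8 antioxidant genes, with 95% intervals from limma and a ring around values with an adjusted p under 0.05. The rings stand on the RNA values of HMOX1 (0.56), GCLM (-0.45) and SQSTM1 (-0.25), and every footprint and efficiency interval crosses 0.

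The level of the ratio itself differed widely among the 8 genes. On the log2 scale of footprints over RNA, TXN was at 3.42 with AZD0095 and 3.06 with DMSO, higher than 98.1% of all genes with AZD0095 and 95.6% with DMSO. TXNRD1, its reductase, was at 0.77 with AZD0095 and 0.20 with DMSO, higher than 34.8% of all genes with AZD0095 and 20.1% with DMSO. With AZD0095 PRDX1 was at 2.00 and SQSTM1 at 1.99, with DMSO PRDX1 was at 1.91 and SQSTM1 at 2.05, and the median gene was at 1.16 with AZD0095 and 1.10 with DMSO. Which lengths went into the RNA and the footprint FPKM is not known here. A difference between them would shift this level for a gene. Because 1 was added to each FPKM, it could also move the change of a low gene. With 0.1 added, the change of the ratio was -0.95 for HMOX1, against -0.86 with 1.

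The regulators above these genes were read from the list of NRF2 control. Of 13 names 9 were tested, 0 rose, 1 fell and 8 did not pass, and the median RNA log2 fold change was 0.06. This is 11.1% called, against 8.04% of all genes, of which 3.01% were called lower. The gene that fell was KEAP1, ENSG00000079999, at chr19:10486125-10503356. KEAP1 RNA was at 32.2, 31.8 and 33.8 FPKM in the AZD0095 libraries, against 49.7, 51.4 and 49.5 FPKM in the DMSO libraries, with a wide gap between the groups. Its RNA log2 fold change was -0.61 ± 0.06 (SE, limma adjusted p = 8.7e-04), and no single library was needed for its call, with an adjusted p of 0.014 at most when each was left out.

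KEAP1 footprints were at 116, 81.4 and 77.6 FPKM with AZD0095, against 146, 68.7 and 108 FPKM with DMSO, and overlapped (log2 fold change -0.18, limma adjusted p = 0.94). NFE2L2 RNA averaged 40.7 ± 11.5 FPKM with AZD0095 and 42.5 ± 6.70 FPKM with DMSO (SD, n = 3 each) and was not called (adjusted p = 0.82). BACH1, the repressor of HMOX1, averaged 9.42 ± 1.93 FPKM with AZD0095 and 6.93 ± 0.302 FPKM with DMSO in RNA and was not called (log2 fold change 0.38, adjusted p = 0.12).

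Of 24 names of cysteine uptake and glutathione, 19 were tested in RNA, 1 rose, 0 fell and 18 did not pass. The share called was 5.26%, against 8.04% of all genes. SLC7A11, the cystine transporter that feeds glutathione synthesis, rose to 11.9 ± 0.497 FPKM with AZD0095, against 9.15 ± 0.746 FPKM with DMSO (SD, n = 3 each, RNA log2 fold change 0.35, limma adjusted p = 0.041). The call was lost with quantile normalization (0.056) and without any library but AZD0095 replicate 1 (0.053 to 0.17). The list median was 0.09 and 16 of 19 members, or 84.2%, were positive, against 52.3% of all genes. In this list the transcript of the other transport subunit, SLC3A2, was at 0.03 and the peroxidase GPX4 at 0.11, neither called.

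Of 20 names around thioredoxin and peroxiredoxins, 16 were tested, 1 rose, 0 fell and 15 did not pass, and the list median was -0.00. The share called was 6.25%, against 8.04% of all genes. TXNIP, an arrestin that binds thioredoxin and restrains glucose uptake, rose to 121 ± 2.59 FPKM with AZD0095, against 102 ± 1.41 FPKM with DMSO (SD, n = 3 each, RNA log2 fold change 0.24, limma adjusted p = 0.018), and lost its call without any library but AZD0095 replicate 1 (0.051 to 0.10). The peroxiredoxins PRDX2 to PRDX6 and the sulfiredoxin SRXN1, a further known NRF2 target, did not pass, with SRXN1 at -0.12. Of 11 genes of NADPH supply 1 rose, 0 fell and 10 did not pass, or 9.09% called against 8.04% of all genes. MTHFD2, a mitochondrial enzyme of one-carbon metabolism, was at 0.27 (limma adjusted p = 0.044). Its call was lost without a variance trend (0.065) and without AZD0095 replicate 2 or 3 or DMSO replicate 2 or 3 (0.11 to 0.18). The pentose phosphate enzymes PGD (-0.02), TKT (0.04) and TALDO1 (0.06) were not called.

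SQSTM1 fell while a pair of other autophagy genes rose. Of 13 names of autophagy receptors and their partners 10 were tested, 2 rose, 0 fell and 8 did not pass, while 5.03% of all genes were called higher. The list median was 0.07 and 6 of 10 members were positive, against 52.3% of all genes, so the list as a whole did not show a rise. The receptor CALCOCO2, also called NDP52, rose to 79.2 ± 7.12 FPKM with AZD0095, against 59.5 ± 7.41 FPKM with DMSO (SD, n = 3 each, RNA log2 fold change 0.41, limma adjusted p = 0.041). GABARAP, a protein that coats autophagosomes, rose to 245 ± 12.3 FPKM with AZD0095, against 207 ± 5.86 FPKM with DMSO (0.24, adjusted p = 0.031). CALCOCO2 lost its call without a variance trend (0.057) and without AZD0095 replicate 2 or DMSO replicate 2 or 3 (0.12 to 0.16), and GABARAP without a variance trend (0.065) and without any library but AZD0095 replicate 1 (0.055 to 0.12).

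No gene was called in the remaining lists. Of 13 names of haem and iron handling 8 were tested. The biliverdin reductase BLVRB was at 0.26 (limma adjusted p = 0.099) and the transferrin receptor TFRC at -0.12 (0.13). Of 6 genes of superoxide and peroxide removal, SOD2 was at 0.10 and SOD1 at 0.07. Of 16 names of quinone and carbonyl detoxification 9 were tested, with UGDH at 0.35 (adjusted p = 0.054) and ADH5 at 0.17 (0.10). Across all 8 further lists 5 of 88 genes rose and 1 fell in RNA, 6.82% called against 8.04% of all genes, so the share called in these lists was near that of the whole table. In footprints and in translational efficiency 0 of the 88 were called.

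**Figure D5:**
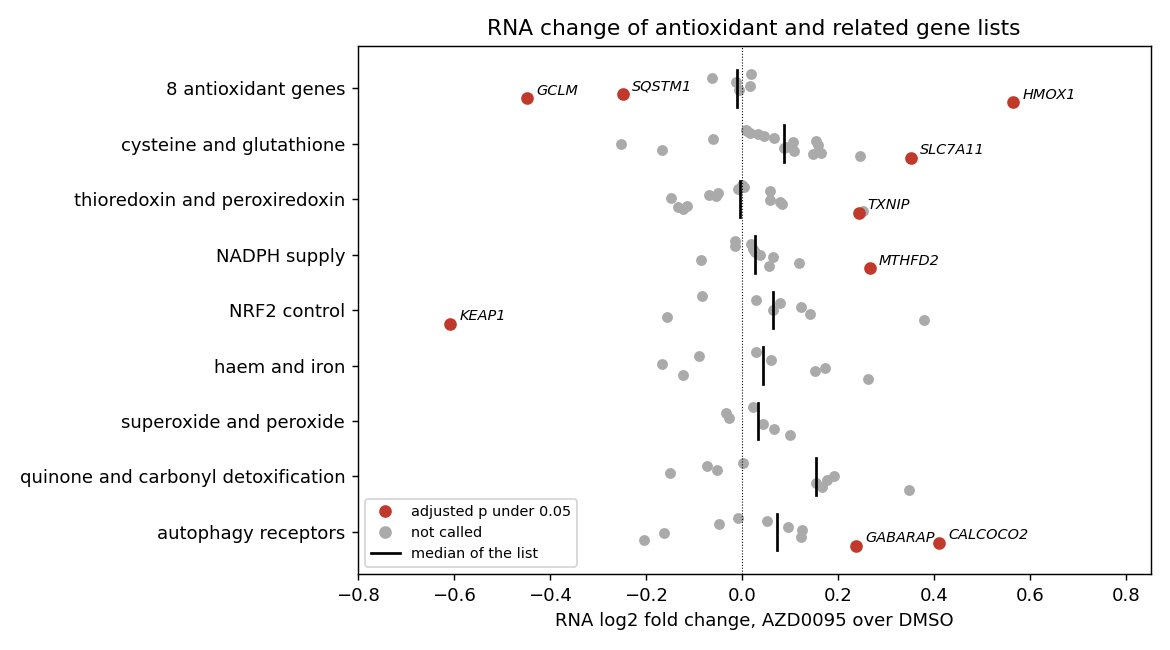
RNA log2 fold change, AZD0095 over DMSO (horizontal axis), of each gene in the 8 antioxidant genes and in 8 related lists (rows), with called genes in red and named, other genes in grey and a line at each list's median. Called genes are scattered over the lists, from KEAP1 at -0.61 to HMOX1 at 0.56, and list medians lie between -0.01 and 0.15.

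The pattern of HMOX1 over the 6 RNA libraries, as log2(FPKM + 1) minus the DMSO mean, was most like those of ARRDC3, TUBE1 and SLAIN1, with root mean square differences of 0.07, 0.08 and 0.08 against a median of 0.42 over all genes. Their log2 fold changes were 0.61, 0.58 and 0.49, a description only, since the genes were picked on these libraries. The pattern of GCLM was most like those of UTP20, XPO1 and COA7, at 0.04, 0.04 and 0.05 against a median of 0.35. Their log2 fold changes were -0.42, -0.40 and -0.48, likewise set by how they were picked.

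As a check of the cell type, 6 of 7 markers of a mesenchymal breast cancer line were listed, with summed RNA of 4729 to 4902 FPKM with AZD0095 and 4440 to 4575 FPKM with DMSO. Of 8 luminal markers ERBB2, KRT19 and EPCAM were listed, with sums of 187 to 195 FPKM with AZD0095 and 150 to 162 FPKM with DMSO, and KRT19 was called (0.31, limma adjusted p = 0.010). Of 5 fibroblast markers 0 were listed and of 5 leukocyte markers CD74 was listed, at 346 to 368 FPKM with AZD0095 and 293 to 341 FPKM with DMSO. The tables hold only genes above 1 FPKM in every library, so an unlisted marker gives no level. The part of these marker shifts in the changes of the 8 genes was not tested.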

How the data were processed

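Per the labels, 12 libraries of MDA-MB-231 cells were made, RNA or ribosome-protected fragments with AZD0095 or DMSO, 3 in each group. The authors deposited FPKM values in a table for each library. The tools fastp, Bowtie2 and STAR and the build hg38 are named in the submitters' processing notes. What each did, their versions, the read counter, the gene models and how FPKM was computed: not given in the sources used here. The same 6785 entries stood in every table, all above 1 FPKM (lowest 1.002), and 6777 genes remained after 8 repeated entries were removed. Reads shared with paralogs or pseudogenes could be split in ways not given here.

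From these values log2(FPKM + 1) was computed and fitted in limma 3.58.1 (R 4.3.3) with a variance trend, for RNA and footprints apart and, for translational efficiency, with the interaction of assay and treatment over all 12 libraries. Tests were two-sided, with Benjamini-Hochberg adjustment over all genes and a threshold of 0.05. The filter of a mean of at least 1 FPKM removed no gene. Intervals are moderated 95% intervals from limma, and those of translational efficiency rest on 1 variance per gene for both assays.

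Footprint depth was read from the FPKM steps: a total and a length 1 short of a multiple of 3 that make all 6 libraries whole, within 0.02 of a read. This held for 1206 genes (17.8%), GCLM and TXN among the 8 members. The shortest such length was taken, so reads can be too few. Totals were searched only within a set range. The scripts were tested on simulated data. RNA depth is unknown.

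The members, lists and rules were chosen with earlier results of these data known. Named are the 8 members, the called genes of each list or otherwise the 2 with the smallest p, and the 3 genes most like HMOX1 and GCLM; other genes were named after their values were seen. Alternatives were a pseudocount of 0.1, filters of 0 and 5 FPKM, median centring, quantile normalization, no variance trend, a replicate block, replicate 1 as a batch and each library left out. Coordinates are of GRCh38.p14 genes in RefSeq, matched by symbol.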

Additional observations from a re-analysis of the deposited data

How the results depend on the processing

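For HMOX1, GCLM and SQSTM1 in RNA the calls were lost only without some single libraries, and KEAP1 kept its call in all 15 alternatives. The direction of HMOX1, GCLM and SQSTM1 held throughout. Their RNA groups did not overlap, so leaving out libraries could not have reversed it. The filters, the variance trend, the block and the batch term left their fitted changes as they were. The count of RNA genes called, 341 higher and 204 lower, became 856 and 766 with the replicate block, 874 and 786 with replicate 1 as a batch, and 656 and 739 with replicates 2 and 3 only, an alternative chosen after seeing the data; with 1 library left out it ran from 67 to 509 higher and from 33 to 603 lower. The replicate numbers paired the RNA libraries only in part. Deviations from the group means of same-numbered AZD0095 and DMSO libraries correlated at 0.62, 0.09 and 0.49 for replicates 1, 2 and 3. Replicates 1 and 3 correlated best with their own number and replicate 2 with another number. The main fit held no replicate term. Under the block HMOX1, GCLM and SQSTM1 kept their calls (limma adjusted p = 0.0038, 0.0020 and 0.0026). Without a variance trend 1 gene was called lower in translational efficiency, and no footprint gene was called under any alternative. Some log2 fold changes that were not called changed sign. With 1 library left out, RNA ran from -0.033 to 0.019 for TXN, -0.028 to 0.069 for TXNRD1, -0.045 to 0.028 for PRDX1 and -0.018 to 0.053 for GSR, footprints from -1.12 to 0.25 for HMOX1, -0.21 to 0.52 for GCLM, -0.038 to 0.23 for NQO1 and -0.66 to 0.21 for GSR, and efficiency from -0.14 to 0.014 for SQSTM1 and -0.64 to 0.18 for GSR. TXNRD1 RNA was at -0.0032 with quantile normalization and PRDX1 RNA at 0.0070 with replicates 2 and 3 only. The cause of these shifts was not tested. GCLM had an implied 3 to 27 footprint reads a library, and how far depth widened the footprint intervals was not tested.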
